A study of Mus musculus with 12 samples.

Results

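The genes described here are 10 genes of the small blood vessels of the brain. They comprise 7 endothelial genes (Cldn5, Flt1, Pecam1, Tek, Slco1c1, Abcb1a and Mfsd2a) and 3 mural genes, that is, genes of the pericytes and smooth muscle cells wrapped around the vessel (Pdgfrb, Rgs5 and Abcc9). They were taken by name from the 44760 genes listed under the same name for both ages. All 10 were found, and all 10 passed the filter on low counts in every comparison. RNA from the hippocampus of male APPswe/PS1dE9 (APP/PS1) mice on a C57BL/6 background (N9B6) was sequenced in 12 libraries, 3 in each of 4 groups. The groups were 18-month mice given nicotine, 18-month mice given saline, 7-month mice given nicotine and 7-month mice given saline. Nicotine hydrogen tartrate, labelled as 48 mg/kg/h, or saline was delivered for 14 days by an osmotic pump under the skin. That dose lies far above those in common use for nicotine infusion and its unit could not be checked, so the amount delivered is uncertain. The series set out to examine how nicotine modifies gene expression at an early and a late stage of amyloid disease. All 4 groups carry both transgenes, a mutant amyloid precursor protein and a presenilin 1 lacking exon 9, so no group shows the vessel genes of a mouse without amyloid. The labels do not say that the 3 libraries of a group came from separate animals, so the p-values measure the spread between libraries, which may be technical.

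The endothelial cells of brain capillaries form the blood-brain barrier. Tight junctions seal the gaps between them, efflux pumps and carriers in their membranes select what crosses, and vesicle transport through them is kept low. Pericytes are embedded in the same basement membrane, are recruited by endothelial platelet-derived growth factor and are needed for the barrier to form and to persist. In a bulk hippocampal sample these cells are a minority, and fewer cells of a type cannot be told apart from less RNA per cell.

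Cldn5 encodes claudin-5, the main sealing protein of the endothelial tight junction, and Mfsd2a encodes a carrier of lysophosphatidylcholine that bears docosahexaenoic acid and that also restrains vesicle transport. Among the endothelial genes at 18 months, Cldn5 had the lowest and Mfsd2a the highest log2 difference between nicotine and saline, and both were lower at 18 than at 7 months. Rgs5 encodes a regulator of G protein signalling that marks pericytes, and it had the largest difference between the ages. The 250 bases before the RefSeq start of these 3 genes are shown for that reason, on GRCm38.p6 and 5′ to 3′ on the strand of the gene, with capitals for matches to the searched motifs. Cldn5 lies on the plus strand with the window at chr16:18776597-18776846, Mfsd2a on the minus strand with the window at chr4:122961189-122961438, and Rgs5 on the plus strand with the window at chr1:169655251-169655500.
Cldn5: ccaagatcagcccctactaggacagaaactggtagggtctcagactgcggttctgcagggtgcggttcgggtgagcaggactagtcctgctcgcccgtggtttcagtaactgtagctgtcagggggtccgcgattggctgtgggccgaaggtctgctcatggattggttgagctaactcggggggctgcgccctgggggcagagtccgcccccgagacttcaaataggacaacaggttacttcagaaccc
Mfsd2a: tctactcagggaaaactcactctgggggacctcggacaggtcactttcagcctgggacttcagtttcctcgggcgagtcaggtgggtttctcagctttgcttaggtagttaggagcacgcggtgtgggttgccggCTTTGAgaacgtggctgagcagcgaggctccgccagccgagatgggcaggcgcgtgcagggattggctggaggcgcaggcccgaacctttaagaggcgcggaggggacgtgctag
Rgs5: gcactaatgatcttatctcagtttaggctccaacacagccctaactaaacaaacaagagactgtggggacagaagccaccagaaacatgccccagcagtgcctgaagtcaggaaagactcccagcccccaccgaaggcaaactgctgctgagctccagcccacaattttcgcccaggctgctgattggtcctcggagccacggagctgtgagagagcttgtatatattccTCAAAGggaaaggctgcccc
The motifs searched on both strands were AGGAAG (the core bound by ETS factors of endothelial cells), CTTTGA (TCF/LEF, the transcription factors of Wnt signalling), AACAAT (SOX), AGAACA (part of the element of the glucocorticoid receptor), CACGTG (E-box), TGACGTCA (cyclic AMP response element) and TATAAA (the letters of the TATA box). Mfsd2a and Rgs5 each held 1 TCF/LEF match and no other, printed as TCAAAG in Rgs5 where it lies on the opposite strand, and no match was found in the Cldn5 window. Of 32851 promoter windows of the same length from 27025 genes, 13.8% held the TCF/LEF letters, so a match is a description of the letters and not of a bound site. The Cldn5 window held 12 CG dinucleotides, that of Mfsd2a 17 and that of Rgs5 4, against a median of 6 over all windows. Among the other endothelial genes, the Flt1 window held 23 CG dinucleotides, 2 ETS matches, 1 cyclic AMP response element, a motif found in 1.55% of all windows, and 1 TATA box. The ETS letters were found in 29.5% and the TATA box letters in 12.4% of all windows. Abcb1a held 2 ETS and 2 TCF/LEF matches, and Slco1c1 held 1 ETS match. Tek held 1 SOX match and 1 match to the glucocorticoid receptor letters. RefSeq windows were matched for 8 of the 10 genes.

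The genes lie on separate stretches of GRCm38 and differ in length, which bears on the comparison of the ages. Cldn5 is a single exon of 1416 nt at chr16:18776847-18778262, and Mfsd2a has a transcript of 2151 nt in 14 exons at chr4:122946850-122961188. Slco1c1 (chr6:141524368-141570177; 3178 nt), Pecam1 (chr11:106654217-106750628; 3283 nt), Rgs5 (chr1:169655501-169695813; 4096 nt), Tek (chr4:94739289-94874976; 4654 nt) and Abcb1a (chr5:8660077-8748575; 4997 nt) lie between. Pdgfrb (chr18:61045150-61085061; 5407 nt), Abcc9 (chr6:142587862-142702315; 6213 nt) and Flt1 (chr5:147561604-147726011; 6895 nt) are the longest. Exons of Abcb1a overlap 553 nt of the opposite-strand locus Gm42686, and exons of Abcc9 overlap 158 nt of the antisense gene 5330439B14Rik, which had 0 or 1 count per library. The strand setting of the counting is not given in the sources used here, so reads from both strands of those stretches cannot be told apart. No transcript of another gene was at least 95% identical to a transcript of the 10 over 200 nt or more.

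The libraries held 21260068 to 23715015 counts at 18 months, and 25071195 to 29245972 counts at 7 months. The ages stand in separate tables with differently labelled libraries, so age and whatever else separates the tables cannot be told apart. Transcripts longer than 5000 nt took 30.6% to 31.5% of the counts at 18 months and 18.7% to 19.5% in 5 of the 6 libraries at 7 months. The remaining one, 7-month saline library 2, had 27.0%, between both sets. At 7 months the libraries numbered 1 carry another description prefix than the rest. Marker sums of other tissue also varied. The 10 choroid plexus markers summed to 120 to 2027 counts scaled to a common library size (CPM) in 18-month nicotine, 107 to 251 in 18-month saline, 142 to 7303 in 7-month nicotine and 279 to 2058 in 7-month saline libraries. The 5 blood cell markers summed to 44.2 to 75.8, 35.4 to 129, 169 to 268 and 138 to 351 CPM, and the 9 meningeal fibroblast markers to 48.2 to 116, 49.5 to 68.9, 70.7 to 226 and 90.7 to 175 CPM, in the same order of groups. None of the markers of these 3 lists was at 0 in a whole group. The neuronal markers, with a lowest sum of 4627 CPM, were high in every library of this labelled brain tissue.

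At 18 months the 7 endothelial genes together gave 191 to 210 CPM in nicotine and 172 to 203 CPM in saline libraries, and at 7 months 213 to 239 CPM in nicotine and 212 to 243 CPM in saline libraries. The 3 mural genes together gave 63.9 to 75.0 CPM in 18-month nicotine, 71.4 to 78.0 in 18-month saline, 31.7 to 35.1 in 7-month nicotine and 31.0 to 56.0 in 7-month saline libraries. CPM are scaled by trimmed-mean factors over all 12 libraries. Between genes, levels were compared as CPM per kilobase of transcript. In 18-month nicotine libraries Slco1c1, a carrier of thyroxine, led with 15.1 ± 1.14 CPM per kb, before Mfsd2a with 11.1 ± 0.657, Cldn5 with 9.57 ± 1.82, Rgs5 with 8.85 ± 0.701 and Flt1 with 8.58 ± 0.332 (SD, n = 3). In 18-month saline libraries the highest were Slco1c1 with 12.6 ± 0.933 and Cldn5 with 12.5 ± 0.560 CPM per kb, a difference smaller than either SD, followed by Rgs5 with 9.73 ± 0.803. At 7 months Cldn5 came first, with 32.3 ± 7.00 CPM per kb in nicotine and 29.8 ± 5.03 in saline libraries. Mfsd2a followed in 7-month nicotine libraries with 25.4 ± 6.66 CPM per kb, against 13.0 ± 1.95 in 7-month saline libraries, where Slco1c1 was in second place with 21.6 ± 0.297. In all 4 groups Tek and Abcc9 were the lowest, with Tek between 1.32 and 2.37 and Abcc9 between 0.679 and 1.86 CPM per kb of group mean. The middle of the order was not resolved in 7-month saline libraries, where Pecam1, Flt1, Abcb1a, Pdgfrb and Rgs5 lay between 5.51 and 3.59 CPM per kb and each differed from the next by less than the larger SD of that pair. Rgs5 and Tek were not resolved in those libraries either. The same held in 18-month nicotine libraries for Mfsd2a, Cldn5, Rgs5 and Flt1, and for Abcb1a and Pecam1. In 18-month saline libraries it also held for Flt1 and Mfsd2a, and for Pecam1 and Pdgfrb. In 7-month nicotine libraries it held for Cldn5 and Mfsd2a, and for Pdgfrb, Abcb1a and Flt1.

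**Figure D1:**
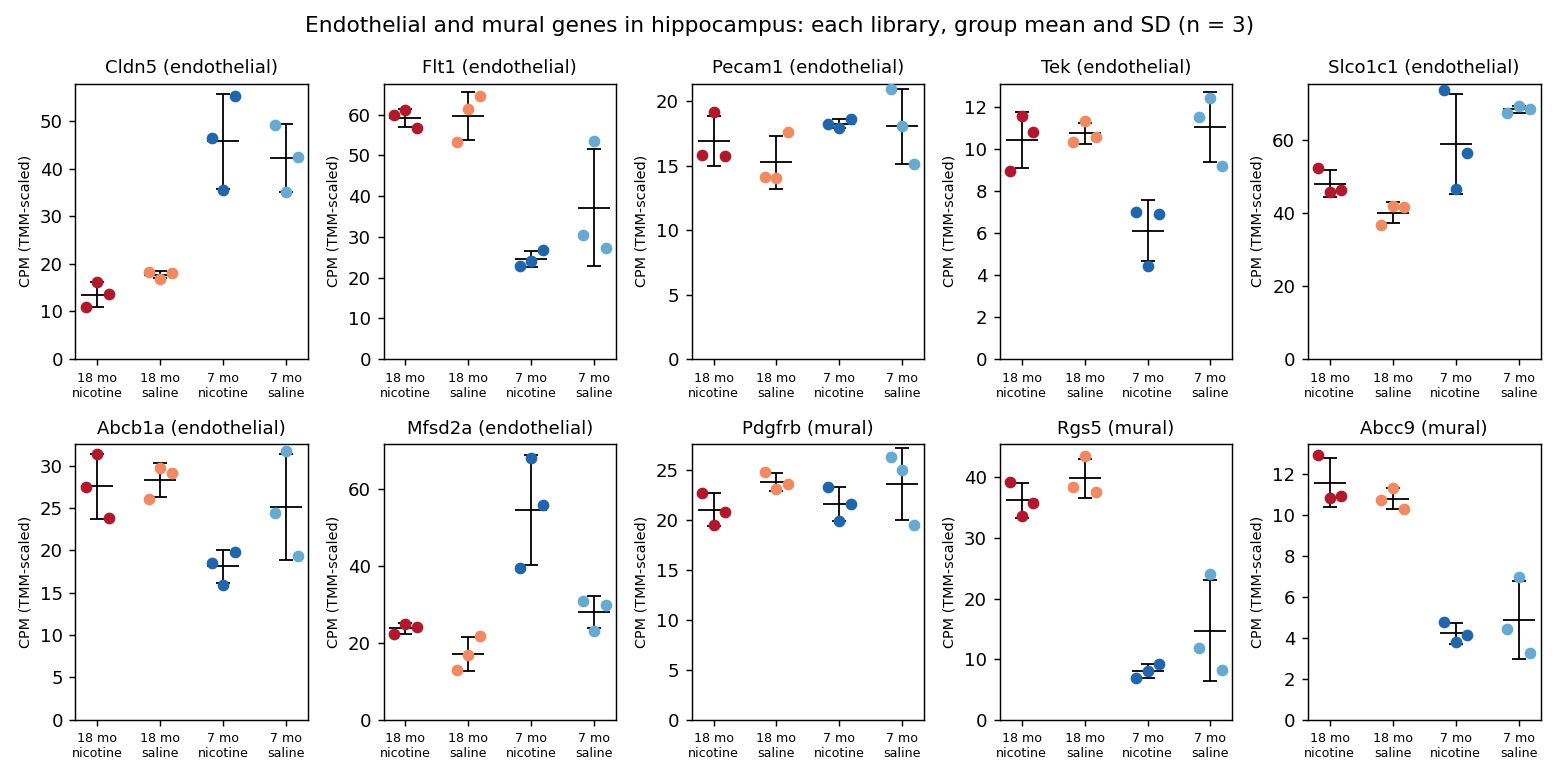
Levels of the 10 genes in CPM (TMM-scaled, vertical axis from 0) for each of the 12 libraries, with points for libraries and black bars for the group mean and SD (n = 3). Rgs5 and Abcc9 sit higher at 18 months than in every 7-month library, Cldn5 sits lower, and Mfsd2a in nicotine libraries lies above saline libraries at both ages.

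The first question of the design was whether nicotine altered these genes. No gene of the 10 passed the test for nicotine against saline at either age, in the average over both ages or in the difference between the ages (edgeR quasi-likelihood F-test, Benjamini-Hochberg adjusted p below 0.05). Over all genes tested, the share called was 0.044% at 18 months, 0.0114% at 7 months, 0.0365% in the average and 0.00522% in the difference. At an unadjusted p below 0.05 the counts among the 10 were 4 at 18 months, 5 at 7 months, 5 in the average and 2 in the difference, against 6.73%, 6.5%, 6.86% and 7.85% of all genes tested. The 5 in the average were the same genes as the 5 at 7 months, namely Flt1, Tek, Abcb1a, Mfsd2a and Rgs5. The 7-month libraries enter both contrasts, so these counts are not separate observations. DESeq2 called 0 of the 10 at 18 months, 1 at 7 months, 1 in the average and 0 in the difference, and the gene called was Mfsd2a each time. Of all genes with an adjusted p, DESeq2 called 57 at 18 months (0.313%), 83 at 7 months (0.512%), 79 in the average (0.413%) and 36 in the difference (0.252%). The median log2 fold change of the 10 was -0.04 at 18 months and -0.23 at 7 months, against -0.0047 and -0.0085 for all genes tested.

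Mfsd2a had the largest positive nicotine difference of the 10 genes at each age. At 18 months it stood at 22.2, 25.0 and 24.2 CPM in nicotine libraries 1, 2 and 3, against 12.9, 16.9 and 21.8 CPM in saline libraries. At 7 months it stood at 39.6, 68.1 and 55.9 CPM in nicotine libraries, against 30.8, 23.1 and 29.9 CPM in saline libraries. Every nicotine library lay above every saline library of its age, at 18 months by a margin of less than 1 CPM. The log2 fold change was 0.45 ± 0.16 (SE) at 18 months, 0.95 ± 0.21 at 7 months and 0.71 ± 0.15 in the average, with adjusted p of 0.661, 0.633 and 0.205 by edgeR. By DESeq2 the average was 0.72 with an adjusted p of 0.00282 and the 7-month value 0.96 with an adjusted p of 0.00886, while at 18 months the adjusted p was 0.412. In edgeR the average passed only without 7-month saline library 2 and 7-month nicotine library 1 together, at 0.75 with an adjusted p of 0.0413. That nicotine library was the lowest of its group for Mfsd2a, and leaving out any single library gave no call. Without both 7-month libraries numbered 1, which have the other prefix, the values were 1.21 at 7 months and 0.85 in the average, with adjusted p of 0.693 and 0.104 by edgeR. At 18 months the value was 0.28 without saline library 1. Within that prefix there is 1 library of each infusion, 39.6 CPM under nicotine and 30.8 CPM under saline.

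Cldn5 did not share the direction of Mfsd2a at 18 months. It had 10.9, 16.1 and 13.6 CPM in 18-month nicotine libraries, against 18.3, 16.8 and 18.0 CPM in 18-month saline libraries, so all nicotine libraries were below all saline libraries. The log2 fold change was -0.40 ± 0.13, with an adjusted p of 0.613 by edgeR, and it was -0.27 without nicotine library 1. At 7 months Cldn5 had 46.5, 35.4 and 55.2 CPM in nicotine and 49.2, 35.0 and 42.4 CPM in saline libraries, groups that overlapped, with a log2 fold change of 0.10 ± 0.19. Pecam1, an adhesion molecule at contacts between endothelial cells, was closest to 0 of the endothelial genes at 7 months. It had 15.8, 19.2 and 15.7 CPM in 18-month nicotine and 14.1, 14.1 and 17.6 CPM in 18-month saline libraries, and 18.3, 17.9 and 18.6 CPM in 7-month nicotine and 21.0, 18.1 and 15.2 CPM in 7-month saline libraries. The groups overlapped at both ages, with log2 fold changes of 0.13 ± 0.12 at 18 months and 0.00 ± 0.14 at 7 months.

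Tek and Flt1 are receptors of the endothelial cell. Tek encodes the angiopoietin receptor Tie2, which keeps vessels quiescent, and it had 7.03, 4.45 and 6.90 CPM in 7-month nicotine libraries, against 11.5, 12.4 and 9.19 CPM in 7-month saline libraries. Flt1, a receptor of vascular endothelial growth factor that also acts as a decoy for it, had 22.8, 24.0 and 26.6 CPM in 7-month nicotine libraries, against 30.5, 53.6 and 27.4 CPM in 7-month saline libraries. For both genes all nicotine libraries were below all saline libraries. The log2 fold change was -0.86 ± 0.22 for Tek and -0.62 ± 0.26 for Flt1, each with an adjusted p of 0.656 by edgeR. Flt1 depended on 7-month saline library 2, the one rich in long transcripts, and without it the value was -0.24. Without both 7-month libraries numbered 1 the values were -0.94 for Tek and -0.69 for Flt1. Genes of the length of Flt1 had a median of -0.26 and those of the length of Tek a median of -0.09 in this comparison. At 18 months Tek had 8.98, 11.6 and 10.8 CPM in nicotine and 10.4, 11.3 and 10.6 CPM in saline libraries, and Flt1 had 59.9, 61.0 and 56.6 CPM in nicotine and 53.2, 61.2 and 64.5 CPM in saline libraries. These groups overlapped, with log2 fold changes of -0.06 ± 0.11 for Tek and -0.02 ± 0.08 for Flt1. The difference between the ages in the nicotine effect was 0.81 ± 0.25 for Tek, with an adjusted p of 0.601 by edgeR, so it did not pass either.

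The remaining transporters were Slco1c1 and Abcb1a, which encodes the efflux pump P-glycoprotein. Slco1c1 had 52.3, 45.8 and 46.4 CPM in 18-month nicotine libraries, against 36.7, 42.0 and 41.7 CPM in 18-month saline libraries, with no overlap. Its log2 fold change there was 0.25 ± 0.08, with an adjusted p of 0.613 by edgeR. At 7 months the nicotine libraries of Slco1c1 were spread widely, at 73.7, 46.6 and 56.4 CPM, against 67.5, 69.4 and 68.6 CPM in saline libraries, and the log2 fold change was -0.23 ± 0.16. It was -0.42 without 7-month nicotine library 1 and -0.09 without 7-month nicotine library 2. Slco1c1 is also a gene of the choroid plexus, whose markers varied among the libraries as given above. All 7 of those tested at 18 months and all 10 at 7 months were above 0 for nicotine against saline. Their median log2 fold changes were 2.55 at 18 months and 1.28 at 7 months, with none called. The part of the choroid plexus in the values of Slco1c1 was not tested. Abcb1a had 27.5, 31.4 and 23.8 CPM in 18-month nicotine and 26.0, 29.7 and 29.2 CPM in 18-month saline libraries, with a log2 fold change of -0.05 ± 0.11. It had 18.6, 15.9 and 19.8 CPM in 7-month nicotine and 24.4, 31.7 and 19.3 CPM in 7-month saline libraries, with a log2 fold change of -0.49 ± 0.20 and groups that overlapped through 1 library on each side. Without 7-month saline library 2 that value was -0.27.

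Pdgfrb, the receptor for platelet-derived growth factor by which pericytes are recruited, had 22.8, 19.5 and 20.8 CPM in 18-month nicotine libraries, against 24.8, 23.1 and 23.6 CPM in 18-month saline libraries. These groups did not overlap, though the log2 fold change was -0.19 ± 0.07, with an adjusted p of 0.686 by edgeR. At 7 months Pdgfrb overlapped, at 23.4, 19.9 and 21.6 CPM in nicotine and 26.3, 25.0 and 19.5 CPM in saline libraries, with -0.14 ± 0.15. Rgs5 had 39.3, 33.6 and 35.8 CPM in 18-month nicotine and 38.4, 43.6 and 37.5 CPM in 18-month saline libraries, with a log2 fold change of -0.15 ± 0.08 and overlapping groups. At 7 months it had 6.96, 8.03 and 9.15 CPM in nicotine and 11.9, 24.1 and 8.18 CPM in saline libraries. Its log2 fold change of -0.89 ± 0.38 at 7 months rested largely on saline library 2 and was -0.32 without it. Abcc9, a sulfonylurea receptor subunit of the potassium channel of pericytes, had 12.9, 10.8 and 10.9 CPM in 18-month nicotine and 10.7, 11.3 and 10.3 CPM in 18-month saline libraries, and 4.78, 3.77 and 4.11 CPM in 7-month nicotine and 4.41, 6.95 and 3.25 CPM in 7-month saline libraries. Its groups overlapped at both ages, with log2 fold changes of 0.09 ± 0.10 and -0.22 ± 0.30. Counted over the 10 genes, the groups did not overlap in 4 at 18 months (Slco1c1 and Mfsd2a higher, Cldn5 and Pdgfrb lower in nicotine) and in 3 at 7 months (Mfsd2a higher, Flt1 and Tek lower). Over all genes tested these shares were 11.8% at 18 months (6.62% higher and 5.15% lower) and 17.4% at 7 months (9.04% higher and 8.37% lower).

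**Figure D2:**
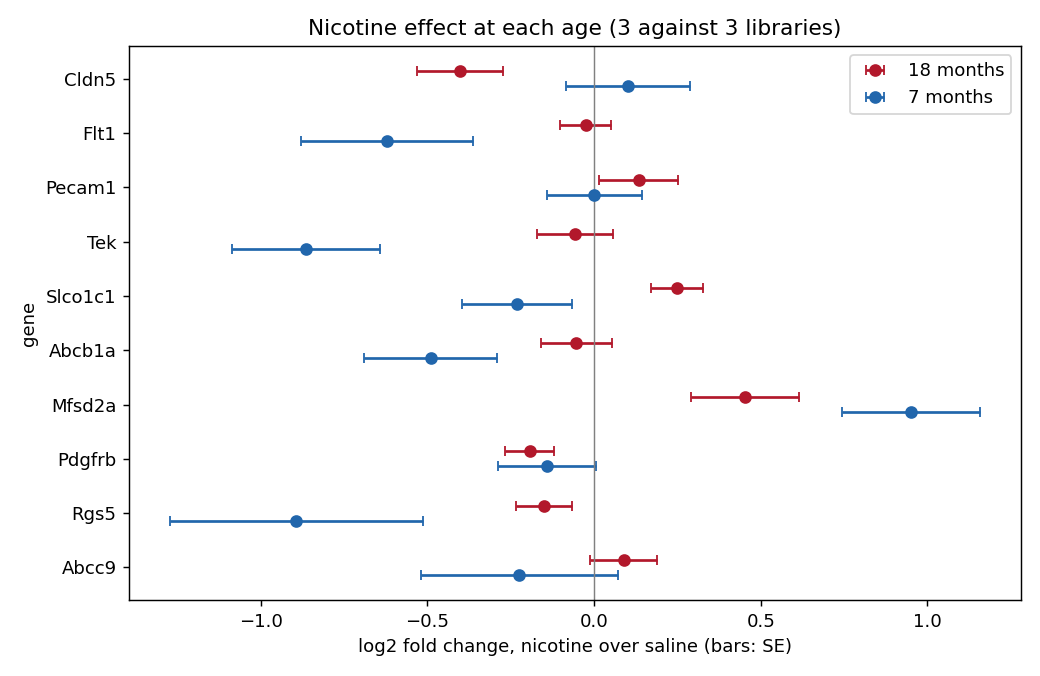
Log2 fold change of nicotine over saline (horizontal axis) for each gene at 18 months (red, upper point of each pair) and 7 months (blue), with bars for the SE from 3 against 3 libraries. Mfsd2a lies to the right at both ages, at 0.45 and 0.95, while Cldn5 lies at -0.40 and 0.10 and Tek at -0.06 and -0.86.

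The second comparison was between the ages, within each infusion. Here the same 10 genes split in both directions. Under nicotine 7 of the 10 passed the test, of which Flt1, Tek, Abcb1a, Rgs5 and Abcc9 were higher and Cldn5 and Mfsd2a lower at 18 months. Under saline 6 of the 10 passed, of which Flt1, Rgs5 and Abcc9 were higher and Cldn5, Slco1c1 and Mfsd2a lower at 18 months (edgeR, adjusted p below 0.05). Over all genes tested, 59.3% were called under nicotine (29.5% higher and 29.8% lower) and 46.1% under saline (21.5% higher and 24.6% lower), so the counts among the 10 are not far from the background. The groups did not overlap in 7 of the 10 under nicotine and in 5 under saline, against 68.9% and 49.7% of all genes tested.

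The mural genes did not move as a unit. Rgs5 showed the largest difference between the ages, a log2 fold change of 2.17 ± 0.30 under nicotine and 1.44 ± 0.29 under saline (adjusted p = 0.000131 and 0.0022 by edgeR), or 4.51-fold and 2.71-fold. Abcc9 was higher at 18 months by 1.45 ± 0.22 under nicotine and 1.15 ± 0.22 under saline (adjusted p = 0.000237 and 0.00184). Pdgfrb differed by -0.04 ± 0.12 under nicotine and 0.01 ± 0.12 under saline, with all 4 group means between 21.0 and 23.8 CPM. The log2 ratio of Rgs5 to Pdgfrb counts was 0.79, 0.78 and 0.78 in 18-month nicotine and 0.63, 0.92 and 0.67 in 18-month saline libraries. It was -1.75, -1.31 and -1.24 in 7-month nicotine and -1.15, -0.05 and -1.26 in 7-month saline libraries. The highest 7-month value belonged to saline library 2, and all 18-month libraries were above it.

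Among the endothelial genes, Cldn5 was lower at 18 months by the widest margin. It averaged 13.5 ± 2.58 CPM in 18-month nicotine against 45.7 ± 9.91 CPM in 7-month nicotine libraries, and 17.7 ± 0.792 CPM in 18-month saline against 42.2 ± 7.13 CPM in 7-month saline libraries (SD, n = 3). Its log2 fold change was -1.76 ± 0.18 under nicotine and -1.25 ± 0.18 under saline (adjusted p = 3.9e-05 and 0.000391 by edgeR), and the highest 18-month library, at 18.3 CPM, was below the lowest 7-month library, at 35.0 CPM. Mfsd2a was lower at 18 months by -1.20 ± 0.21 under nicotine and -0.70 ± 0.21 under saline (adjusted p = 0.000473 and 0.0171). The saline call of Mfsd2a was lost without 7-month saline library 1 (-0.63), 7-month saline library 3 (-0.64) or 18-month saline library 1 (-0.54), with adjusted p of 0.0584, 0.0572 and 0.0687. Slco1c1 was lower at 18 months under saline by -0.77 ± 0.14 (adjusted p = 0.00119), with 40.2 ± 2.97 CPM at 18 months against 68.5 ± 0.944 CPM at 7 months. Under nicotine its value was -0.29 ± 0.14, with an adjusted p of 0.0821 that passed without 7-month nicotine library 2 (-0.43, adjusted p = 0.00900), while without 7-month nicotine library 1 the value was -0.10 (adjusted p = 0.443). Pecam1 did not pass, with -0.11 ± 0.14 under nicotine and -0.24 ± 0.14 under saline.

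Flt1 was higher at 18 months by 1.27 ± 0.20 under nicotine and 0.68 ± 0.20 under saline (adjusted p = 0.000277 and 0.0147 by edgeR). It averaged 59.2 ± 2.29 CPM in 18-month nicotine against 24.5 ± 1.95 CPM in 7-month nicotine libraries, and 59.6 ± 5.81 CPM in 18-month saline against 37.1 ± 14.3 CPM in 7-month saline libraries. The saline groups overlapped, since 7-month saline library 2 had 53.6 CPM and 18-month saline library 1 had 53.2 CPM. The saline value was 1.07 without 7-month saline library 2, and the call was lost without 7-month saline library 1 (0.55, adjusted p = 0.0690) or library 3 (0.52, adjusted p = 0.0513). Tek and Abcb1a passed under nicotine alone, at 0.77 ± 0.18 and 0.61 ± 0.17 (adjusted p = 0.00313 and 0.00765), against -0.04 ± 0.18 and 0.17 ± 0.16 under saline. The difference between both infusions is the same contrast as the difference between the ages in the nicotine effect, which did not pass for Tek (0.81) or Abcb1a (0.43 ± 0.23, adjusted p = 0.623). Without 7-month saline library 2, Abcb1a passed under saline as well, at 0.40 with an adjusted p of 0.0221.

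Over all genes, the median difference between the ages climbed with transcript length. In the length decile that holds Cldn5 the median log2 fold change between the ages was -0.70 under nicotine and -0.51 under saline, and in the decile that holds Flt1 it was 0.76 under nicotine and 0.51 under saline. The decile of Mfsd2a had medians of -0.39 and -0.29, that of Rgs5 and Tek 0.17 and 0.08, and that of Abcb1a, Pdgfrb and Abcc9 0.38 and 0.21. Offsets that remove the trend with length in each library left Rgs5 (1.36), Abcc9 (0.81), Cldn5 (-1.08) and Slco1c1 (-0.73) called under saline. Under saline they took the call from Flt1 (0.29, adjusted p = 0.0613) and from Mfsd2a (-0.53, adjusted p = 0.0555). Under nicotine they took the call from Abcb1a (0.23, adjusted p = 0.146), gave one to Pdgfrb in the lower direction (-0.49, adjusted p = 0.00341), and left Rgs5 (1.98), Abcc9 (0.89), Flt1 (0.62), Tek (0.46), Mfsd2a (-0.97) and Cldn5 (-1.46) called.

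**Figure D3:**
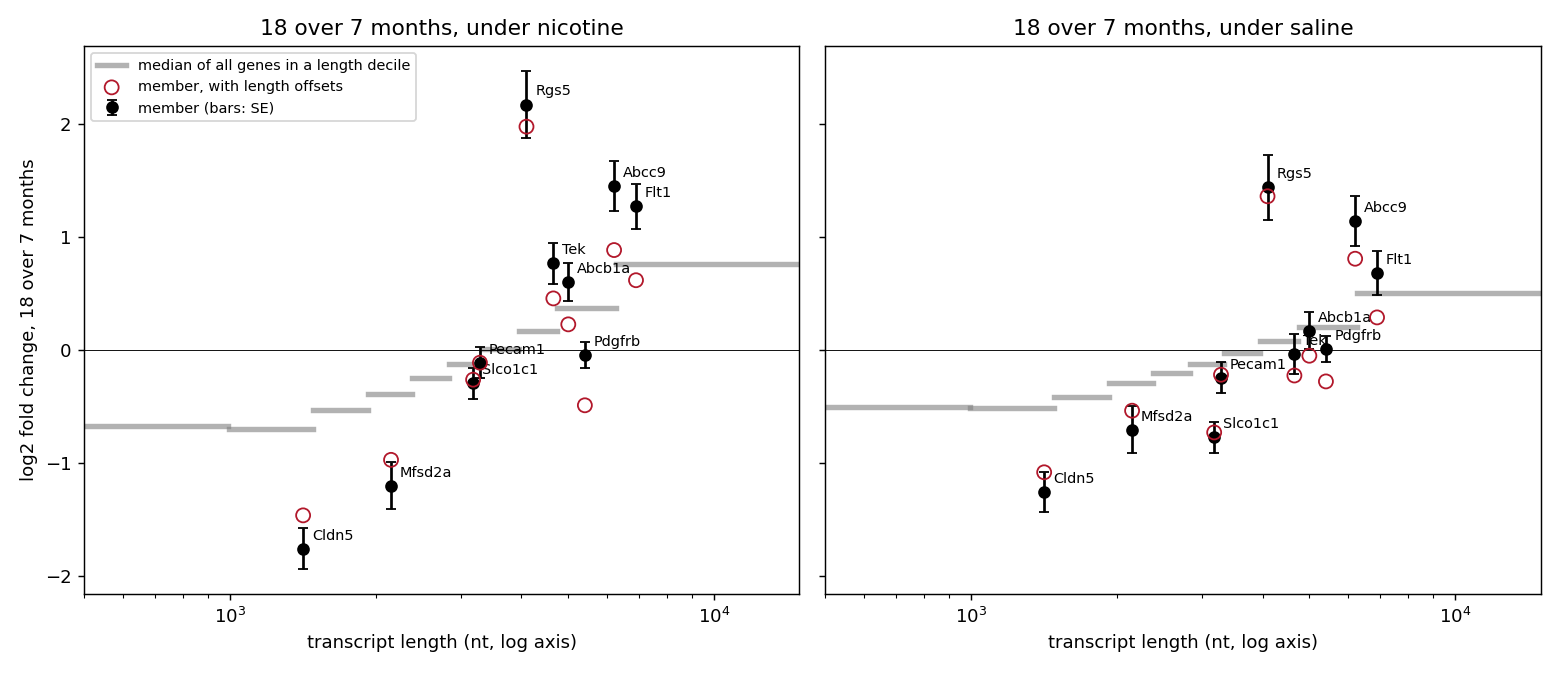
Log2 fold change of 18 over 7 months against transcript length (nt, log axis), under nicotine (left) and saline (right), with black points and SE bars for the 10 genes, grey lines for the median of all genes in each length decile and open red circles for the values with length offsets. The grey medians climb with length, from -0.67 to 0.76 under nicotine and from -0.50 to 0.51 under saline, and Rgs5 and Abcc9 stand above them while Cldn5 stands below.

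Ratios between 2 genes of the same library do not depend on the scaling of the libraries, and are given as a description of pairs chosen after the values were seen. The log2 ratio of Mfsd2a to Cldn5 counts was 1.02, 0.63 and 0.83 in 18-month nicotine libraries, against -0.50, 0.01 and 0.27 in 18-month saline libraries. It was -0.23, 0.94 and 0.02 in 7-month nicotine libraries, against -0.68, -0.60 and -0.50 in 7-month saline libraries. At each age all nicotine libraries were above all saline libraries. At 18 months this follows from the levels above, with Mfsd2a higher and Cldn5 lower without overlap, and adds no further support. The share of gene pairs that separate in this way was not computed. The log2 ratio of Slco1c1 to Cldn5 was 2.26, 1.51 and 1.77 in 18-month nicotine against 1.00, 1.32 and 1.21 in 18-month saline libraries, without overlap. That separation likewise follows from the levels of both genes. At 7 months the ratio was 0.66, 0.40 and 0.03 in nicotine and 0.46, 0.99 and 0.69 in saline libraries, which overlapped. The log2 ratio of Tek to Pecam1 was -1.38, -2.01 and -1.43 in 7-month nicotine against -0.86, -0.54 and -0.72 in 7-month saline libraries, and at 18 months it was -0.82, -0.73 and -0.54 in nicotine and -0.45, -0.31 and -0.73 in saline libraries. Only the 7-month values were separate.

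**Figure D4:**
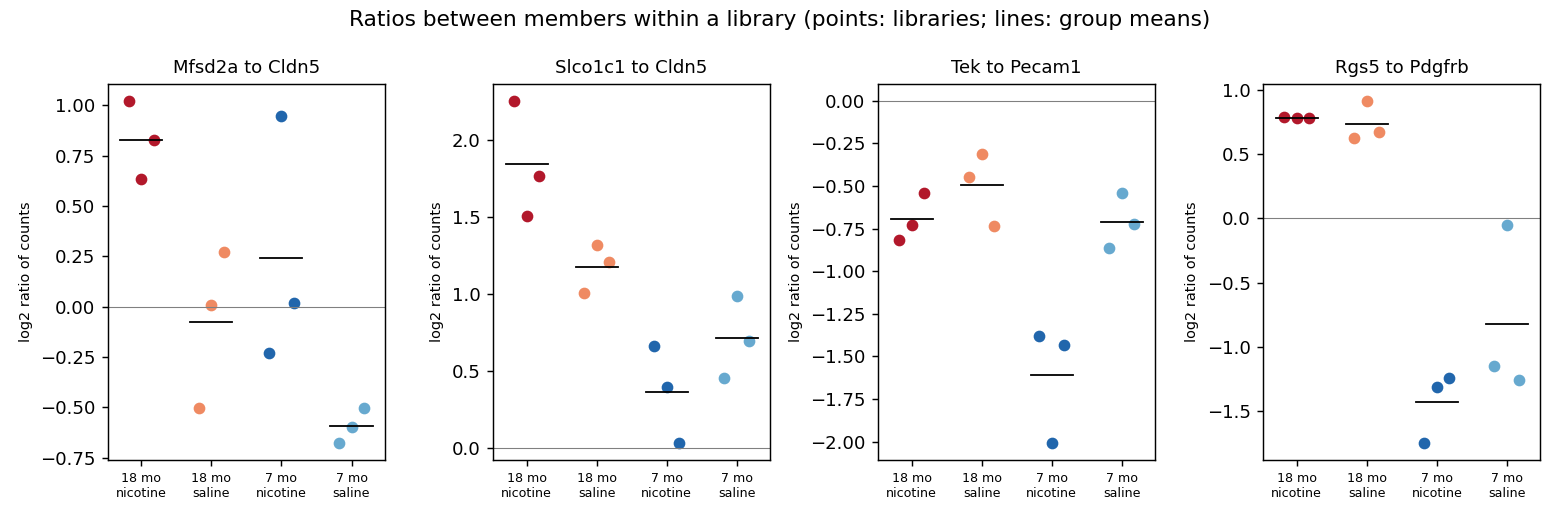
Log2 ratio of counts within each library for 4 pairs of genes (vertical axes), with 1 point per library, a line for each group mean and the 18-month groups to the left of the 7-month groups. Mfsd2a to Cldn5 is higher in every nicotine than in every saline library of the same age. At 18 months this follows from the levels of both genes. Rgs5 to Pdgfrb is above 0 in all 18-month and below 0 in all 7-month libraries.

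Other genes of the vessel wall were taken from lists of endothelial, barrier and mural genes. None of the genes tested in the 10 vascular lists was called for nicotine against saline at 18 months, at 7 months or in the average. Among the listed barrier transporters other than the 10 genes, the one nearest to the threshold in the average was Abcc4, an efflux pump, at 0.35 ± 0.07 with an adjusted p of 0.181 by edgeR. Outside the transporters, Lrg1, a secreted glycoprotein of inflamed venules, had 1.21 ± 0.27 (adjusted p = 0.236 by edgeR). Ly6c1, a surface protein of mouse endothelial cells, had 0.52 ± 0.11 (adjusted p = 0.240 by edgeR). In the average, log2 fold changes were above 0 in 6 of 13 barrier transporters and in 7 of 15 endothelial identity genes. The medians of these lists were -0.14 and -0.06. In the leukocyte adhesion list that holds Lrg1, 3 of 4 were above 0. At 18 months the smallest p among the Wnt genes belonged to Gpr124, the endothelial co-receptor for Wnt7 ligands. It had 0.35 ± 0.08 (adjusted p = 0.415 by edgeR). Of the 16 Wnt genes tested, 4 were above 0 at 18 months, with a median of -0.05. Kdr, the main signalling receptor for vascular endothelial growth factor, had -0.33 ± 0.09 at 18 months and -0.99 ± 0.39 at 7 months (adjusted p = 0.519 and 0.656). Slc2a1, the glucose carrier of the barrier, had 0.38 ± 0.12 at 18 months (adjusted p = 0.613 by edgeR). Of the 13 barrier transporters tested, 5 were above 0 at that age, with a median of -0.08. Of the astrocyte endfoot genes, Gjb6, which encodes the gap junction protein connexin 30, was the one called in the average, at 0.54 ± 0.08 with an adjusted p of 0.0496 by edgeR. The share called over all genes in that contrast was 0.0365%. Of the 8 endfoot genes tested, 2 were above 0 in the average, with a median log2 fold change of -0.09.

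Counts of called genes in the lists stand against 29.5% higher and 29.8% lower over all genes under nicotine, and 21.5% higher and 24.6% lower under saline. The values of the listed genes carry no length offsets, while over all genes the difference between the ages climbed with transcript length. Of 15 endothelial identity genes tested, 3 were higher and 9 lower at 18 months under nicotine, and 1 was higher and 7 lower under saline, with medians of -0.45 and -0.46 against -0.03 for all genes tested in each. Ly6c1 fell by 1.48 ± 0.16 and Egfl7, a secreted endothelial protein, by 1.22 ± 0.16 under nicotine (adjusted p = 4.91e-05 and 0.000106 by edgeR). Fli1, an ETS transcription factor, was higher by 1.63 ± 0.18 under nicotine and 1.02 ± 0.18 under saline (adjusted p = 5.38e-05 and 0.00115). The transcripts of Ly6c1 and Egfl7 have 844 and 1391 nt and that of Fli1 3318 nt. Of 9 junction genes, 3 were higher and 1 lower under nicotine and none was called under saline. Tjp1, the junction scaffold ZO-1, was higher by 1.30 ± 0.21 under nicotine (adjusted p = 0.000294) and had 0.46 ± 0.20 under saline (adjusted p = 0.0842). Lsr, a protein of contacts between 3 cells, fell by 0.69 ± 0.18 under nicotine (adjusted p = 0.00638).

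Counts in the next 5 lists stand against the same shares over all genes. These were 29.5% higher and 29.8% lower under nicotine, and 21.5% higher and 24.6% lower under saline. Of 13 barrier transporters, 3 were higher and 1 lower at 18 months under nicotine, and 2 were higher and 1 lower under saline. Slc7a1, a carrier of cationic amino acids, was higher by 0.82 ± 0.16 under nicotine and 0.58 ± 0.16 under saline (adjusted p = 0.000881 and 0.00983 by edgeR). Of 13 angiogenic ligands and receptors, 4 were higher under each infusion, and 1 was lower under nicotine and 0 under saline. Ptprb, an endothelial phosphatase that acts on Tie2, was higher by 1.32 ± 0.19 under nicotine and 0.88 ± 0.19 under saline (adjusted p = 0.000163 and 0.00307). Of 16 Wnt genes, 4 were higher and 0 lower under nicotine, and 3 were higher and 2 lower under saline. Lrp6, a Wnt co-receptor, was higher by 0.92 ± 0.17 and 0.69 ± 0.17 (adjusted p = 0.000622 under nicotine and 0.00562 under saline), and Ndp, the ligand norrin, fell by 0.77 ± 0.19 under saline (adjusted p = 0.00604). Of 5 caveolar and vesicle genes, 1 was lower under nicotine, Plvap, the diaphragm protein of leaky vessels, by -0.75 ± 0.19 (adjusted p = 0.00492), and none was called under saline. Of 4 leukocyte adhesion genes tested, 2 were lower under nicotine, Darc and Lrg1, and 1 under saline, Darc.

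Calls among markers of other cell types stand against the same shares of all genes. These were 29.5% higher and 29.8% lower under nicotine, and 21.5% higher and 24.6% lower under saline. Several of the lists lay near or below those shares, and the part of these cell types in the vascular lists was not tested. Of 9 meningeal fibroblast genes, 0 were called under nicotine and 7 were lower at 18 months under saline. Of 5 blood cell genes, 3 were lower under each infusion, and of 10 choroid plexus genes none was called under either. Of 6 oligodendrocyte genes, 1 was lower under nicotine and 3 under saline. Of 8 astrocyte endfoot genes, 5 were higher and 2 lower under nicotine, and 4 were higher and 2 lower under saline. Of 6 microglial genes, 2 were higher and 2 lower under nicotine, and 2 were higher and 1 lower under saline. Of 7 neuronal genes, 1 was lower under nicotine, and 1 was higher and 1 lower under saline.

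The pericyte list gave calls in both directions, at counts near or below the shares over all genes. Those shares were 29.5% higher and 29.8% lower under nicotine, and 21.5% higher and 24.6% lower under saline. Of 13 tested, 2 were higher and 4 lower at 18 months under nicotine, and 2 were higher and 3 lower under saline, with medians of -0.10 and -0.52. Notch3, a receptor of mural cells, was higher by 1.35 ± 0.19 under nicotine and 1.08 ± 0.19 under saline (adjusted p = 0.000162 and 0.00117 by edgeR). Ndufa4l2 fell by 1.16 ± 0.24 under nicotine (adjusted p = 0.00138), and Vtn, which encodes the matrix protein vitronectin, by 0.75 ± 0.18 under saline (adjusted p = 0.0057). Of 10 vascular smooth muscle genes, 2 were higher and 0 lower under nicotine, and 1 was higher and 3 lower under saline. Of 10 basement membrane genes, 6 were higher under nicotine and 3 under saline, and none was lower, against 29.5% and 21.5% of all genes higher. Hspg2, the proteoglycan perlecan, was higher by 1.45 ± 0.29 under nicotine and 0.99 ± 0.29 under saline (adjusted p = 0.00124 and 0.0153), and Lamc1, a laminin chain, by 0.85 ± 0.12 and 0.51 ± 0.12 (adjusted p = 0.00015 and 0.00509). Notch3, Hspg2 and Lamc1 have transcripts of 8016, 14176 and 7622 nt, in the decile of longest genes, whereas Ndufa4l2 and Vtn have 934 and 1744 nt.

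The profiles over the 12 libraries, centred on each age, were also compared with those of 14497 genes by the root mean square difference of log2 CPM. Genes closest to the mean of the 7 endothelial genes were Atp2a3 (0.0507), R3hdm1 (0.0551), Parp11 (0.0575) and Sparcl1 (0.0580), against a median of 0.195 over all genes. Of the endothelial genes themselves, Pecam1 (0.108), Abcb1a (0.161) and Slco1c1 (0.172) lay below that median. Flt1 (0.232), Cldn5 (0.251), Tek (0.272) and Mfsd2a (0.477) lay above it. The nearest genes were picked as the smallest of 14497 differences, so their lying closer than the endothelial genes says nothing about the latter. Genes closest to the mean of the 3 mural genes were Jade1 (0.0659), Tenm1 (0.0812), Dip2a (0.0819), LOC102638398 (0.0830) and LOC102636644 (0.0842), against a median of 0.283, with Abcc9 at 0.103, Pdgfrb at 0.167 and Rgs5 at 0.203. Each endothelial and mural gene is itself part of the mean it was compared with, which lowers its difference. A place below the median therefore does not show shared variation, and means without the gene itself were not computed.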

How the data were processed

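RNA-seq raw counts of fragments per gene were deposited by the authors as 1 table per age, with no normalization. Per the submitters' processing notes the aligner was TopHat and the genome build GRCm38; the counting tool, annotation and strand setting are not given in the sources used here. The labels' protocols describe a small RNA kit, whereas the tables hold mRNA and noncoding genes. The tables hold 44786 genes (18 months) and 44788 genes (7 months), joined on 44760 shared names. Depth per library was 21260068 to 29245972 counts, which sets counting error alone.

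The 10 genes and the 17 context lists (161 of 165 listed names were in the tables; 4 others are current names of genes listed under older ones) were chosen with earlier results of these data known. All 10 genes are named in each comparison, with up to 3 genes of smallest p per list and the 5 genes nearest in profile, of which 1 is not reported here. The pairs of the ratios were chosen after values were seen.

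Tests used edgeR 4.0.16 in R 4.3.3 (TMM, filterByExpr, quasi-likelihood F-test, Benjamini-Hochberg over all genes at 0.05). Nicotine within an age used its 6 libraries, and other contrasts all 12 as 4 group means. The SE is the absolute log2 fold change over the square root of F. Alternatives were DESeq2 1.42.0, RLE factors, no filter on low counts, a replicate block, each library left out, 12 libraries in 1 fit, libraries left out in pairs, and transcript length offsets (spline with 4 degrees of freedom; GENCODE M21 lengths for 32226 genes). Leaving out both 7-month libraries numbered 1 was added after the data were seen. Departures of same-numbered libraries from group means correlated at -0.113 to 0.0857, so numbers were not used as pairs. With 3 libraries in each group the smallest two-sided p of an exact permutation test is 0.1, and no such test was run. Profile likeness used log2(CPM + 0.5) and genes with a mean log2 CPM of at least 1. Promoter sequences are from RefSeq (GRCm38.p6). The procedure was tested on simulated data. Figures and tables were made with matplotlib 3.10.9 and pandas 2.3.3 (Python 3.11.15, numpy 2.4.6).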

Additional observations from a re-analysis of the deposited data

How the results depend on the processing

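The count of called genes among the 10 was within 1.5 times its reported value in 110 of 113 recomputations, and the exceptions were 1 call in place of 0 by DESeq2 at 7 months and in the average, and 1 in the average without 7-month saline library 2 and 7-month nicotine library 1. With the replicate block the counts were 0 in each nicotine contrast, 6 for age under saline and 7 under nicotine, and it changed no call. Leaving out 1 library gave 4 to 7 calls for age under saline and 7 to 8 under nicotine, and 0 in each nicotine contrast; length offsets gave 4 and 7. All 40 group means of CPM moved by less than 1 SD with total-count scaling. Of 1130 recomputed log2 fold changes, 50 changed sign, none of them called before or after; the cause was not tested.

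With length offsets, nicotine at 7 months gave Cldn5 -0.0089, Pdgfrb 0.011 and Abcc9 0.0048, the average Abcc9 0.048, and age under saline Abcb1a -0.049 and Pdgfrb -0.28. Genes with a length gave Pecam1 -0.0026 (nicotine, 7 months), Tek 0.017 (age, saline) and Pdgfrb 0.029 (age, nicotine). RLE factors and DESeq2 gave Tek 0.0036 under saline (both) and Pdgfrb 0.00042 and 0.00032 under nicotine, and no filter gave Pdgfrb -0.022 under saline. Without 7-month saline library 2 and nicotine library 1, Cldn5 was -0.011 and Abcc9 0.045 at 7 months, Slco1c1 -0.067 and Abcc9 0.074 in the average, Tek 0.086 for age under saline and Pdgfrb 0.025 under nicotine. Without both 7-month libraries numbered 3, Cldn5 was -0.062 and Pecam1 -0.14 at 7 months, Pdgfrb 0.064 in the difference between ages and -0.11 for age under saline. Under saline, that pair left out also ended the calls of Flt1 (0.50, adjusted p = 0.0700 by edgeR) and Mfsd2a (-0.66, 0.0677). Without both 7-month libraries numbered 1, Slco1c1 was -0.080 in the average, Pecam1 -0.0063 in the difference, Tek 0.018 for age under saline, where Flt1 lost its call (0.58, adjusted p = 0.0673 by edgeR), and Pdgfrb 0.023 under nicotine.

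With single libraries left out, the ranges that crossed 0 were, for nicotine at 7 months, Cldn5 -0.057 to 0.26, Pecam1 -0.11 to 0.11 and Abcc9 -0.45 to 0.14. At 18 months they were Tek -0.13 to 0.043, Flt1 -0.10 to 0.037 and Abcb1a -0.15 to 0.043. In the average they were Slco1c1 -0.077 to 0.089 and Abcc9 -0.16 to 0.12, and in the difference Pdgfrb -0.13 to 0.035 and Abcc9 -0.056 to 0.49. For age they were Tek -0.14 to 0.084 and Pdgfrb -0.098 to 0.093 under saline, and Pdgfrb -0.10 to 0.015 under nicotine.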
